A study of Mus musculus with 8 samples.

Results

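DNA repair genes were followed in haematopoietic stem cells that had lost 3 histone demethylases. The set holds 33 genes chosen for their place in end joining, damage signalling, homologous recombination, the Fanconi pathway, and mismatch and excision repair, and all 33 were found by symbol among the 24222 genes counted. The data were RNA-seq read counts from stem cells sorted from bone marrow of C57BL6 mice, 4 wild type (WT) and 4 Kdm4a, Kdm4b and Kdm4c triple knockout (KO), with 1 library per mouse, taken 2 weeks after induction of the knockout. Kdm4a, Kdm4b and Kdm4c encode enzymes that remove methyl groups from lysines of histone H3. The age and sex of the mice, the sort markers, the means of induction and the deleted exons were not stated in the labels.

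Breaks through both DNA strands are mended either by end joining, in which the Ku proteins hold the broken ends and a ligase seals them, or by homologous recombination, which copies an intact sister strand and needs DNA replication to have made one. Links between strands are cut free by the Fanconi pathway, and wrong or damaged bases are replaced by mismatch and excision repair. Quiescent stem cells of the marrow are known to lean on end joining, and mice or patients with a broken Fanconi pathway lose these cells. KDM4A is also known to bind, through its Tudor domains, a histone mark that 53BP1, the product of Trp53bp1, uses at breaks.

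The knockout showed in the RNA of its targets, and depth varied between libraries. Kdm4c fell from 115 ± 22.7 to 36.0 ± 10.6 CPM (SD, n = 4; CPM, reads scaled to a common adjusted library total), and edgeR's quasi-likelihood test gave an adjusted p of 2.06e-05, while Kdm4a and Kdm4b had log2 fold changes of -0.87 and -1.40 and did not pass it (adjusted p 0.132 and 0.142). In none (0) of the 3 did the WT and KO libraries overlap. Counts sum over a whole gene, so exons that were not deleted are included. Library totals ran from 3594315 to 6044289 in WT and from 5541504 to 14872493 in KO, the highest being KO mouse 3. The 33 repair genes together took 12397 to 22279 counts in WT and 19335 to 55152 in KO. Defining markers of stem cells were present, with a summed level of 4550 to 4890 CPM over 15 genes in WT and 3930 to 4330 CPM in KO. Sums over other marker lists were 101 to 139 CPM in WT and 105 to 231 CPM in KO for neutrophils and monocytes, 21.8 to 43.3 and 31.9 to 52.2 CPM for lymphocytes, and 40.4 to 74.6 and 40.8 to 70.6 CPM for stroma and endothelium. Those of macrophages and dendritic cells were at 92.3 to 194 CPM in WT and 202 to 272 CPM in KO, with Siglech at 0 throughout. Of 6 tested, 2 were called higher and 1 lower by edgeR, beside 0.252% and 0.33% of all genes tested. The 6 had no shared direction: 4 had a fold above 1 and 2 below, with log2 fold changes from -2.84 to 1.57. Marker sums of erythroid cells were at 2260 to 2470 CPM in WT and 1310 to 1510 CPM in KO, with all 6 globin genes listed at 0. Reads that match several genes may be counted for none of them, so these values of 0 were not read as absence. Of 6 tested, 1 was called lower, beside 0.33% of all genes tested. That gene, Car2, a carbonic anhydrase gene, made up most of the sum and averaged 2286 ± 111.5 CPM in WT mice and 1306 ± 84.9 CPM in KO mice (SD, n = 4, edgeR adjusted p 4.21e-06). The stem cell, macrophage and erythroid sums did not overlap between WT and KO, and their part in the results below was not tested. Fewer cells of a type and less RNA per cell cannot be told apart in such samples.

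No repair gene changed past the threshold. Of the 33 genes, all of which were abundant enough to test, 0 were called higher and 0 lower by edgeR at an adjusted p of 0.05, where 0.583% of the 11498 genes tested were called. DESeq2 and limma voom also called 0. At an unadjusted p under 0.05, edgeR gave 3 higher (Prkdc, Atm and Fancg) and 1 lower (Lig4), which is 12.1% of the 33, beside 11.2% of all genes tested. In the higher direction the share over all genes was 5.75%, and in the lower direction 5.45%. The WT and KO mice did not overlap for 3 genes, Prkdc and Atm (higher) and Lig4 (lower), or 9.09% of the 33, beside 5.81% of all genes (2.88% higher and 2.93% lower). The fitted fold was above 1 for 21 of the 33 (63.6%), beside 50.2% of all genes. Their median log2 fold change, 0.05, compares with 0.002 over all genes. That lean towards KO rested in part on single mice: without WT mouse 3, 14 of the 33 had a fold above 1 and the median was -0.0165, and without KO mouse 2 the values were 17 of 33 and 3e-04.

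**Figure D1:**
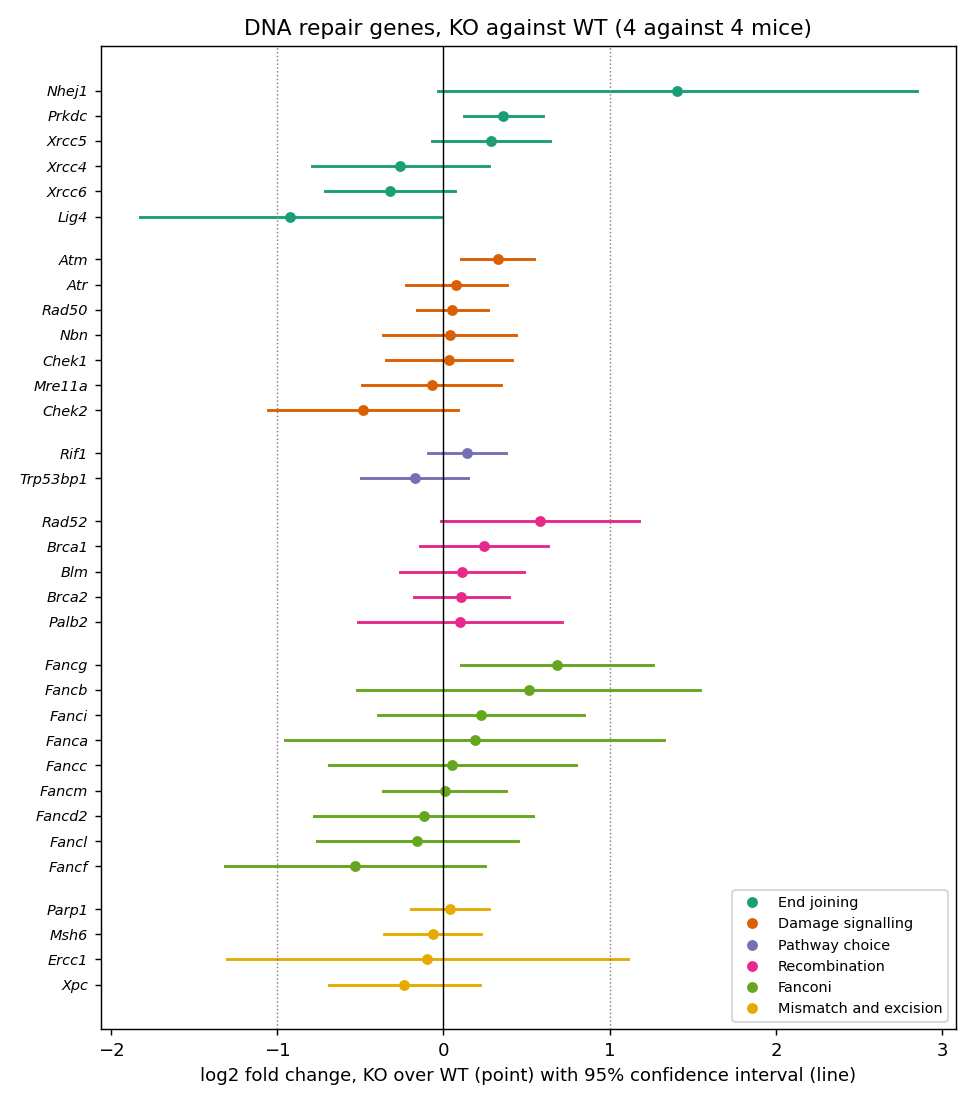
Log2 fold change, KO over WT, of the 33 repair genes (points) with 95% confidence intervals from edgeR (lines), coloured by role, with dotted lines at -1 and 1. Most intervals cross 0, those of Atm, Prkdc and Fancg lie above it and that of Lig4 below, and the widest belong to genes with few counts such as Nhej1 and Ercc1.

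The intervals of the differences set how large a change could have gone unseen. For 24 of the 33 genes the 95% confidence interval of the fold lay within 2-fold either way, and for 13 within 1.5-fold. Intervals were narrower at higher levels: of 18 genes with a mean of at least 50 CPM over all 8 mice, 18 lay within 2-fold and 13 within 1.5-fold. Of 15 genes below 30 CPM, 6 lay within 2-fold and 0 within 1.5-fold. Among the well-measured genes, the interval was 0.894 to 1.20 times for Rad50, a subunit of the complex that first senses broken ends, and 0.872 to 1.21 times for Parp1, the sensor of strand nicks. At the other end were Nhej1, at 0.977 to 7.19 times, and Ercc1, at 0.405 to 2.16 times.

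Levels per kb of exon spanned a wide range within the set. In WT, Rad50 was highest at 107 CPM per kb, followed by Parp1 at 67.8 and Msh6, which recognises mismatched bases, at 62.3. Every WT mouse was higher for Rad50 than any for Parp1, whereas the values of Parp1 and Msh6 overlapped. Atm (37.4), Rif1 (37.0) and Xrcc5 (34.6) came next and overlapped each other. The median of the 33 was 7.78 CPM per kb, beside 6.90 over the 11428 tested genes with a known length. Lowest were Nhej1 at 0.875, Ercc1 at 0.812 and Fanca at 0.394 CPM per kb, the last with 2.16% of the genes tested at or below it. Of the 9 Fanconi genes, Fancf alone, at 8.75 CPM per kb, was above the median of all genes, and Fancm, at 6.27, lay close below it. The exon lengths used join all annotated transcripts of a gene, so such ranks depend on that choice.

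**Figure D2:**
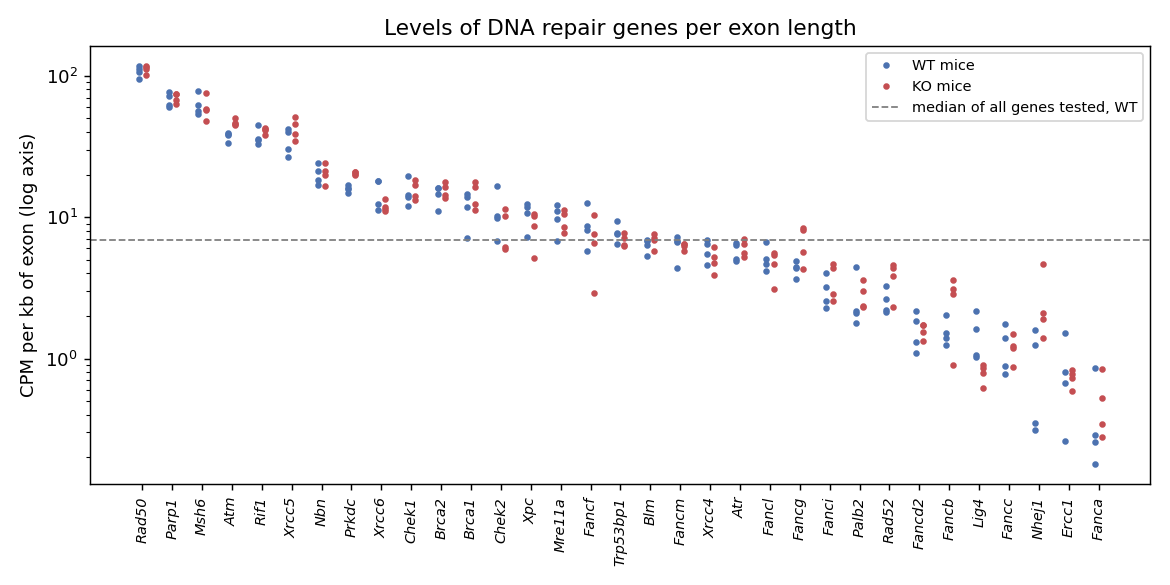
Level of each repair gene in CPM per kb of exon (log axis) in 4 WT and 4 KO mice, 1 point per mouse, ordered by the WT mean. The dashed line is the median of all genes tested in WT, 6.90 CPM per kb, and the order runs from Rad50 at 107 to Fanca at 0.394 in WT.

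Among the end joining genes, Prkdc had the smallest p. Prkdc (chromosome 16, 15637866 to 15842235, plus strand, mm10) encodes DNA-PKcs, the kinase that Ku brings to broken ends. It stood at 211, 223, 194 and 209 CPM in WT (mice 1 to 4), and at 265, 260.3, 274 and 273 CPM in KO (mice 1 to 4). Every KO mouse was thus above every WT mouse, and the spread within each group was small. The fitted fold was 1.28, a log2 fold change of 0.36 (SE 0.116), with an unadjusted p of 0.0045 and an adjusted p of 0.191 by edgeR. The exact two-sided permutation p of its log2 level was 0.0286, the smallest that 4 against 4 mice can give. Every gene whose WT and KO mice do not overlap gets this value, as 5.81% of all genes tested did. For Prkdc, and for Lig4 and Atm below, it therefore restates the lack of overlap and adds no further support.

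Lig4 (chromosome 8, 9969049 to 9977686, minus strand), the ligase that seals the ends, had a fold below 1. It stood at 5.37, 8.39, 11.4 and 5.49 CPM in WT and 4.72, 4.11, 3.21 and 4.46 CPM in KO. All 4 KO mice were below all 4 WT mice, but WT mice 1 and 4 lay close to the KO range and the gene rested on 24 to 58 counts per library. The log2 fold change was -0.92 (SE 0.44), with an unadjusted p of 0.0469 and an adjusted p of 0.437 by edgeR, and the exact permutation p was 0.0286. Xrcc4, which holds the ligase, averaged 24.7 ± 4.41 CPM in WT mice and 21.1 ± 3.91 CPM in KO mice (SD, n = 4).

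The Ku subunits had folds on opposite sides of 1. Xrcc5, which encodes Ku80, averaged 88.4 ± 18.5 CPM in WT mice and 109 ± 18.6 CPM in KO mice (SD, n = 4), and Xrcc6, which encodes Ku70, 66.8 ± 16.2 and 53.5 ± 4.36 CPM. Neither passed the test (edgeR adjusted p 0.57 and 0.566), and a share of 7.69% of the exon bases of Xrcc6 lies opposite the gene Desi1. Nhej1, the XLF scaffold protein, was at 0.978 ± 0.72 and 2.81 ± 1.63 CPM on 2 to 35 counts per library, and its WT and KO mice overlapped.

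Atm led the damage signalling genes. Atm (chromosome 9, 53439149 to 53536740, minus strand) encodes the kinase that answers breaks through both strands and belongs, with DNA-PKcs and ATR, to 1 family of large kinases. It stood at 345, 400.0, 394 and 405 CPM in WT mice 1 to 4 and at 463, 522, 475 and 476 CPM in KO mice 1 to 4. No KO mouse fell into the WT range. The fitted log2 fold change was 0.33 (SE 0.106), with an unadjusted p of 0.005 and an adjusted p of 0.201 by edgeR, and an exact permutation p of 0.0286.

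For genes of the set described in full, a start region is shown where at least 100 bases in a row lie outside annotated exons. Atm alone met this. The longest such runs of Lig4, Fancg and Rad52 were 20, 45 and 44 bases. Prkdc, Rif1 and Xpc had no RefSeq start site matched. The stretch of Atm lies before the RefSeq start and outside annotated exons (GRCm38.p6, the same assembly as mm10, chr9:53536741-53536921, minus strand, 181 bases). Capitals mark a GC box (GGGCGG) and a CCAAT box, which is on the other strand here and so reads ATTGG. It is printed 5′ to 3′ in the direction of Atm.
Atm: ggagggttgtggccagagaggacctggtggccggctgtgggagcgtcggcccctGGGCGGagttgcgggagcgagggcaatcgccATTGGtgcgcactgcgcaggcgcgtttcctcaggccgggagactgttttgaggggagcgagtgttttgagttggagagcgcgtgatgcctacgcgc

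The other kinases of damage signalling did not share the separation seen for Atm and Prkdc. Atr, the kinase of stalled replication forks, averaged 135 ± 20.0 CPM in WT mice and 142 ± 19.0 CPM in KO mice (SD, n = 4), and Chek1, the kinase it activates, 69.2 ± 14.7 and 72.4 ± 10.8 CPM. Chek2, the kinase downstream of ATM, was at 32.7 ± 12.4 and 25.3 ± 8.36 CPM, where WT mouse 1 at 49.9 CPM stood above every other mouse. The 3 subunits of the break-sensing complex were near level: Rad50 was at 577 ± 52.4 and 598 ± 39.9 CPM. Mre11a, its nuclease, was at 58.8 ± 13.7 and 56.2 ± 9.82 CPM, and Nbn, which recruits ATM, at 50.8 ± 8.10 and 51.7 ± 7.91 CPM. The log2 fold changes of these 3 were between -0.07 and 0.05. WT and KO mice overlapped for each of the 6 genes.

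Neither of the pair that steers breaks towards end joining passed the test. Rif1 stood at 468, 376, 346 and 367 CPM in WT and 440.2, 446, 434 and 398 CPM in KO, with a log2 fold change of 0.14 (SE 0.114, adjusted p 0.703 by edgeR). The highest value of all was in WT mouse 1, and the other 3 WT mice were below all 4 KO mice. Trp53bp1, which encodes the chromatin reader 53BP1, averaged 110 ± 17.1 CPM in WT mice and 97.2 ± 9.91 CPM in KO mice, with a fold between 0.711 and 1.11 by its 95% confidence interval. A share of 15.0% of its exon bases lies opposite Tubgcp4, and reads of the 2 genes may not have been separated.

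**Figure D3:**
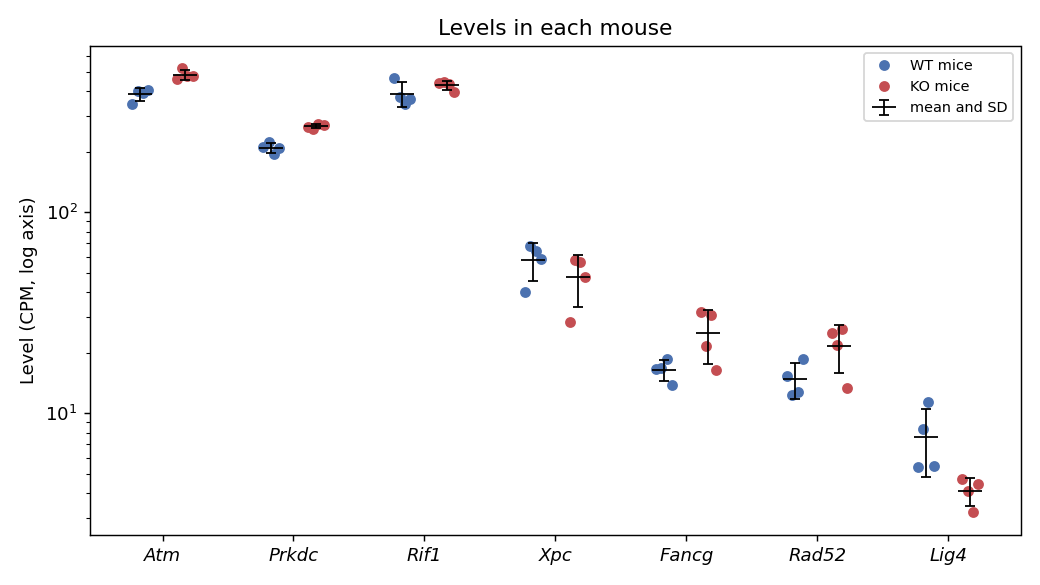
Levels in CPM (log axis) of the repair genes that had the smallest p of their role, or an unadjusted p under 0.05, in 4 WT and 4 KO mice, with the mean and SD. WT and KO do not overlap for Atm (WT 345 to 405, KO 463 to 522 CPM), Prkdc and Lig4, and they overlap for Rif1, Xpc, Fancg and Rad52.

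All 5 genes of homologous recombination had a fold above 1, and 0 of the 5 had an unadjusted p under 0.05. Rad52, which anneals single strands, had the smallest p. It stood at 15.3, 12.3, 12.7 and 18.7 CPM in WT and 25.0, 21.9, 26.3 and 13.4 CPM in KO, so 3 KO mice were above the WT range and KO mouse 4 lay within it. The log2 fold change was 0.58 (SE 0.289), with an adjusted p of 0.46 by edgeR. Brca1 averaged 101 ± 29.1 CPM in WT mice and 123 ± 26.5 CPM in KO mice, and WT mouse 2 at 60.4 CPM was lowest. Brca2, a central gene of this pathway, was at 197 ± 33.3 and 211 ± 24.8 CPM. Palb2, which joins the BRCA1 and BRCA2 proteins, was at 19.2 ± 8.87 and 20.6 ± 4.51 CPM, and the helicase gene Blm at 55.6 ± 6.17 and 59.9 ± 6.78 CPM. The WT and KO mice overlapped for all 5.

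In the Fanconi pathway a core complex tags FANCD2 and FANCI with ubiquitin at a cross-link. Of the core genes, Fancg had the smallest p. Fancg (chromosome 4, 43002343 to 43010506, minus strand) stood at 16.6, 16.8, 18.6 and 13.9 CPM in WT and at 32.0, 21.5, 30.9 and 16.3 CPM in KO. Here 3 KO mice were above the WT range and KO mouse 4 was inside it. The log2 fold change was 0.68 (SE 0.281), with an unadjusted p of 0.0228, an adjusted p of 0.346 by edgeR and an exact permutation p of 0.114.

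The remaining core genes varied with no shared direction. Fancl, the ubiquitin ligase of the complex, averaged 17.3 ± 3.59 CPM in WT mice and 15.8 ± 3.81 CPM in KO mice, and Fancf 14.8 ± 4.71 and 11.6 ± 5.16 CPM. Fancb, on the X chromosome, was at 4.63 ± 1.02 and 7.81 ± 3.54 CPM; 3 KO mice were above all WT mice and KO mouse 3, at 2.67 CPM, was below them all. Fanca was at 3.45 ± 2.70 and 4.36 ± 2.21 CPM on 8 to 52 counts per library, and Fancc at 10.0 ± 3.75 and 9.97 ± 2.14 CPM. Fancm, the helicase that anchors the complex to DNA and the highest in CPM of the 9 Fanconi genes of the set, was at 65.5 ± 13.3 and 65.2 ± 3.72 CPM, and its log2 fold change was 0.007 (SE 0.18).

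Neither gene of the tagged proteins passed the test. Fancd2 averaged 12.7 ± 3.91 CPM in WT mice and 12.6 ± 1.49 CPM in KO mice, and its partner gene Fanci 17.4 ± 4.52 and 20.9 ± 6.10 CPM (SD, n = 4). Shares of 16% of the exon bases of Fanci, 16.4% of those of Fancc, 15.0% of those of Fancf, 13.7% of those of Fancl and 10.5% of those of Fanca lie opposite another gene. Over the 9 Fanconi genes, 6 had a fold above 1, and their log2 fold changes had a median of 0.05.

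No mismatch or excision gene of the set passed the test. Of 4 genes, 1 had a fold above 1, and the log2 fold changes ran from -0.24 to 0.04. Xpc, which finds distorted DNA for nucleotide excision repair, had the smallest p. It stood at 40.1, 67.7, 64.4 and 58.7 CPM in WT and 28.3, 58.0, 56.4 and 47.7 CPM in KO, with a log2 fold change of -0.24 (SE 0.221, adjusted p 0.763 by edgeR). The groups overlapped widely, and WT mouse 1 and KO mouse 1 were the lowest. Msh6 averaged 271 ± 46.7 CPM in WT mice and 259 ± 49.7 CPM in KO mice, Parp1 359 ± 42.2 and 370 ± 29.6 CPM, and Ercc1, a subunit of the nuclease that cuts 5′ of a lesion, 2.53 ± 1.62 and 2.28 ± 0.315 CPM on 5 to 34 counts per library.

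Further genes of the same pathways did not pass the threshold either. From a list of 94 such genes 91 were in the tables and 89 were tested, and 0 passed edgeR's test in either direction; DESeq2 and limma voom also called 0. Those with an unadjusted p under 0.05 were 5 on the higher side and 1 on the lower, 6.74% of the 89, beside 11.2% of all genes. A fold above 1 was found for 57 of the 89 (64%), with a median of 0.06 on the log2 scale. The smallest p was that of Rmi2, a partner of the BLM helicase, averaging 25.5 ± 5.35 CPM in WT mice and 42.95 ± 11.9 CPM in KO mice (edgeR adjusted p 0.186). Next came Rnf168, which encodes the ubiquitin ligase that marks chromatin for 53BP1, at 189, 174, 218 and 204 CPM in WT and 266, 214, 272 and 268 CPM in KO. There 3 KO mice lay above the WT range and KO mouse 2 within it, and the log2 fold change was 0.37 (SE 0.126, adjusted p 0.221 by edgeR). Slx4, the scaffold of the cross-link nucleases, was the 1 gene of the 89 whose groups did not overlap (1.12%, beside 5.81% of all genes), at 40.9 ± 8.42 and 55.4 ± 5.51 CPM (SD, n = 4). The kinetochore and Fanconi gene Apitd1 was at 4.98 ± 1.39 and 10.6 ± 4.49 CPM, the polymerase gene Polb at 8.65 ± 1.54 and 14.0 ± 3.17 CPM, and the helicase gene Ercc3, the 1 lower gene, at 34.5 ± 7.26 and 24.3 ± 3.28 CPM. Gen1, a nuclease that resolves crossed strands, was at 19.6 ± 3.84 and 29.2 ± 7.79 CPM, and Ube2t, which passes ubiquitin to FANCD2, at 6.41 ± 4.19 and 12.2 ± 3.75 CPM.

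Recombination and Fanconi genes are known to be made mostly as cells replicate their DNA, so the 33 were also read beside cell cycle genes. Of them, 9 were set apart as linked to replication (Brca1, Brca2, Chek1, Blm, Fanca, Fancb, Fancd2, Fanci and Msh6). Their median log2 fold change was 0.11, with 7 of 9 above 1, against 0.04 and 14 of 24 for the other repair genes. The medians were 0.14 for 38 genes of S phase and 0.24 for 30 genes of G2 and mitosis, of which 30 and 26 had a fold above 1 and 0 and 0 passed edgeR's test. Before adjustment, 7 (18.4%) and 8 (26.7%) of these were higher at p under 0.05, beside 5.75% of all genes, and 0 were lower, beside 5.45%. The smallest p was that of the helicase gene Mcm6 (474 ± 55.0 and 622 ± 94.3 CPM) and the spindle gene Ckap2l (93.6 ± 17.9 and 149 ± 29.7 CPM, edgeR adjusted p 0.163 and 0.0682). Their part in the small excess of repair genes with a fold above 1 was not tested.

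**Figure D4:**
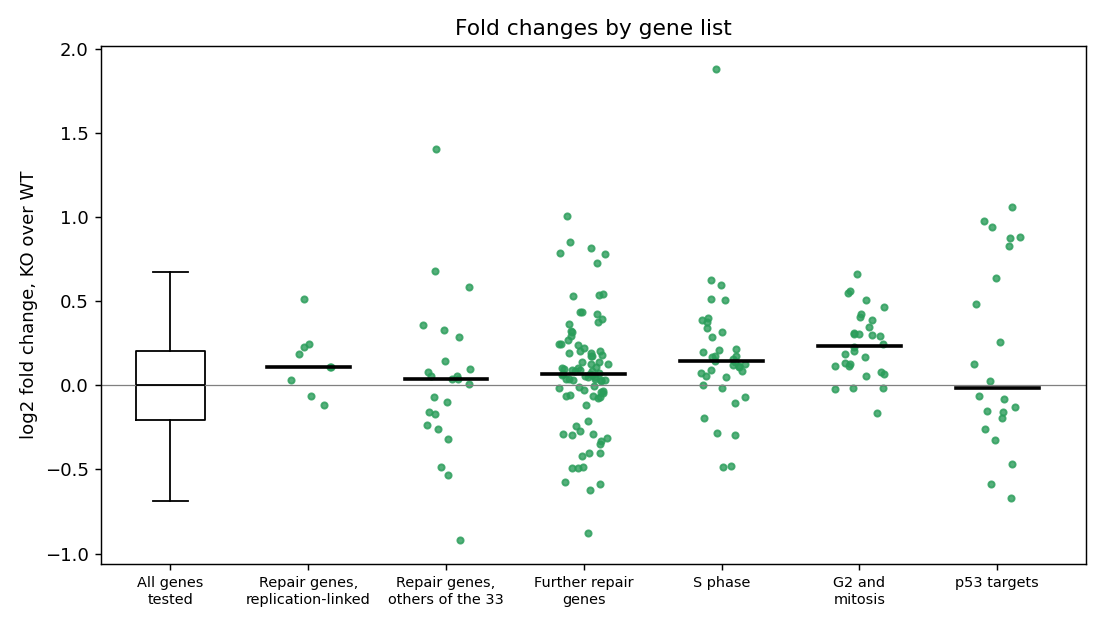
Log2 fold change, KO over WT, for all genes tested (box with quartiles, whiskers from the 5th to the 95th percentile) and for each gene of 6 lists (points, bar at the median). The medians of the repair lists lie between 0.04 and 0.11 and those of the S phase and mitosis lists at 0.14 and 0.24.

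By mouse, the genes linked to replication overlapped between WT and KO. Their mean log2 level, centred per gene, was 0.13, -0.18, -0.35 and 0.02 for WT (mice 1 to 4) and 0.14, 0.25, -0.18 and 0.17 for KO. WT mouse 3 was lowest, and KO mouse 3 lay below WT mice 1, 2 and 4. For the other 24 repair genes the means lay between -0.07 and 0.04 in all 8 mice. Medians were further apart in these 24 genes, from -0.22 in WT mouse 3 to 0.10 in KO mouse 1, and in the replication-linked genes WT mouse 3 had a median of -0.32. WT mouse 3 was thus the lowest for both sets by mean and by median. The S phase list was lowest in WT mice 2 and 3, both at -0.23, and highest in KO mouse 1, at 0.24. KO mouse 2, highest for the repair genes linked to replication, was at -0.02 for S phase.

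**Figure D5:**
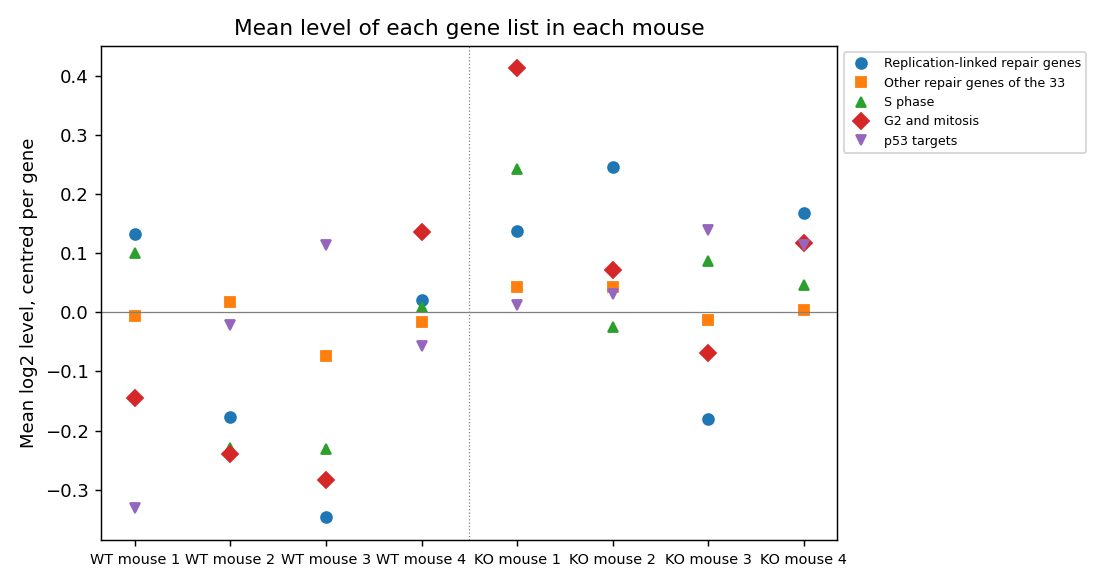
Mean log2 level, centred per gene, of 5 gene lists (symbols) in each of the 4 WT and 4 KO mice. The replication-linked repair genes run from -0.35 in WT mouse 3 to 0.25 in KO mouse 2, while the means of the other repair genes of the set lie between -0.07 and 0.04 (their medians between -0.22 and 0.10), with WT mouse 3 lowest in both.

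Targets of p53, which ATM and CHEK2 activate after damage, were read as a further list. Of 22 tested, 11 had a fold above 1, with a median of -0.02 on the log2 scale, and 0 passed edgeR's test; before adjustment 4 were higher (18.2%, beside 5.75% of all genes) and 0 lower (beside 5.45%) at p under 0.05. Zmat3, an RNA-binding p53 target, had the smallest p, averaging 91.8 ± 19.8 CPM in WT mice and 144 ± 37.0 CPM in KO mice (edgeR adjusted p 0.124). Cdkn1a, which encodes the cell cycle inhibitor p21, was the 1 target whose groups did not overlap (4.55% of 22, beside 5.81% of all genes) and is named after its values were seen. Its WT mice stood at 4.51, 2.80, 7.44 and 7.58 CPM, below the KO mice at 16.01, 9.34, 11.5 and 12.6 CPM, with a log2 fold change of 1.06 (SE 0.39) and an adjusted p of 0.28 by edgeR.

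Some of the repair genes share a start region with a gene read in the opposite direction. A protein-coding gene on the other strand began within 1000 bp of the start of 12 of the 33 (36.4%), beside 17.2% of the protein-coding genes tested. Atm and Npat, a coactivator of histone genes, start 307 bp apart, and Prkdc and the replication helicase gene Mcm4 466 bp apart. Npat averaged 181 CPM in WT mice and 186 CPM in KO mice, a log2 fold change of 0.04 (SE 0.136), and Mcm4 was at 262 and 305 CPM, with a log2 fold change of 0.21 (SE 0.153). Lig4 and Abhd13 start 21 bp apart, and Abhd13 was at 37.3 and 31.3 CPM. As a level per kb of exon, Atm was 1.00, 1.20, 1.59 and 1.51 times Npat in WT and 1.39, 1.64, 1.63 and 1.67 times in KO. These values overlapped, with an exact permutation p of 0.171 for n = 4 against 4 and 0.471 adjusted over 11 such ratios, which were chosen after the values were seen.

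The start regions were also searched for motifs known from cell cycle and housekeeping genes. RefSeq start sites matched 27 of the 33 genes, and the 250 bases before each were searched on both strands, with overlaps allowed, as were those of 8796 tested genes. The E2F motif, spelled TTTCGCGC or TTTGGCGC, was in 0 of 27 windows and in 1.39% of all windows. The core of the NRF1 motif, CGCATGCG, was in 2 of 27 (7.41%), those of Lig4 and Fancm, and in 3.44% of all. The CCAAT box was in 12 of 27 (44.4%) and in 36.8% of all, the GC box GGGCGG in 17 of 27 (63%) and 60.1%, and the CHR element TTTGAA in 0 of 27 and 10.3%. A match here is a run of letters and not a measured binding site, and no match says only that these letters are not in this window.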

How the data were processed

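RNA was sequenced from sorted stem cells of 4 WT and 4 KO mice. Per the labels' protocols, total RNA was amplified to cDNA with the Nugen Ovation system and sequenced on an Illumina NextSeq. The deposited tables hold 1 raw read count per gene symbol and library, which the authors made with STAR 2.4.0d-2 and htseq-count 0.6.1galaxy1 on mm10, per the labels' protocols and the submitters' processing notes. Not given in the sources used here were the annotation and the strand setting, so overlapping antisense genes may share reads. Amplified reads carry no molecular identifiers, so a limit drawn from the counts of a single library would cover counting error only. The confidence intervals given here come from edgeR's quasi-likelihood test, which also takes in the spread between mice.

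Counts were tested with edgeR 4.0.16 in R 4.3.3: filterByExpr (minimum count 10, minimum total 15) left 11498 genes, libraries were scaled by TMM (factors 0.974 to 1.03), and KO was compared with WT by the robust quasi-likelihood test with genotype as the only term, two-sided, with Benjamini-Hochberg adjustment over all genes tested and a threshold of 0.05. The standard error of a log2 fold change is its size over the square root of F, and 95% intervals use the t quantile of the test's degrees of freedom. Permutation tests used log2(CPM + 1), or log2 ratios, and all 70 regroupings of 4 against 4. DESeq2 1.42.0 and limma 3.58.1 (voom) were alternatives. The procedure was tested on simulated data. Gene positions and exon lengths come from GENCODE M21 (mm10), in which 23061 symbols matched directly, 811 through a synonym and 350 not. The exon length of a gene joins the exons of all its annotated transcripts.

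Some values, among them 1 of the 11 ratios, are not reported here. The repair genes and the other lists were chosen with earlier results of these data known. Described in full were genes with an unadjusted p under 0.05 or no overlap between WT and KO, the smallest p of each role, and up to 8 further repair genes. Within each group, libraries differed beyond sampling noise (chi-square per degree of freedom at least 10.9). Nothing in the labels ties mice of the same number together.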

Additional observations from a re-analysis of the deposited data

Results flagged for a closer look

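In 68 groups of 4 mice (33 genes and the library totals, in WT and in KO), 3 held a mouse far from the other 3 by Dixon's criterion, where chance gives about 1 in 20. Fanca was at 7.46 CPM in WT mouse 1 and at 1.57 to 2.52 CPM in the other WT mice, and KO mouse 2 was at 7.36 CPM. Palb2 was at 32.4 CPM in WT mouse 1 and at 13.1 to 15.9 CPM in the other WT mice. The total count of KO mouse 3 was 14872493, against 5541504 to 7059382 in the other KO mice.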

How the results depend on the processing

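Over 17 alternatives 0 repair genes of the set were called in either direction, as were 0 of the further repair genes; all 33 were tested except with a filter of 5 CPM (30 tested) and with thinned counts (31). The smallest adjusted p of any of the 33 was 0.0714, for Prkdc with DESeq2. The median log2 fold change of the 33, 0.0525, ran from 0.0443 to 0.0669 over the 7 alternatives that keep all libraries and test all 33, was 0.0431 over the 30 genes and 0.0405 over the 31, and ran from -0.0165 (without WT mouse 3) to 0.0963 (without KO mouse 4) when 1 library was left out. The 7 genes described in full kept their sign in all 17 alternatives, with log2 fold changes of 0.28 to 0.35 for Atm, 0.33 to 0.39 for Prkdc and -1.08 to -0.64 for Lig4. The count over all genes, 67, became 198 without a filter and 154 with DESeq2, and ran from 35 (without WT mouse 3) to 70 when 1 library was left out; it was 44 without WT mouse 2 or without KO mouse 4. The cause was not tested. With the mouse number as a replicate block, 0 of the 33 were called and the smallest adjusted p was 0.315. Deviations of same-numbered mice correlated between -0.099 and -0.013, and 0 of 4 correlated best with their own number. With 4 mice per group, such correlations cannot decide whether the number pairs the mice. Of the 15 genes below 30 CPM, 0 had an interval within 1.5-fold; the parts of depth and of spread between mice in this were not tested.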

Other observations

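Repair proteins that work as partners were read as ratios of their RNA levels per kb of exon within each mouse, with the pairs chosen after the values were seen. With 4 against 4 mice the smallest exact permutation p is 0.0286, so a single ratio that separates WT from KO cannot go below 0.314 after Benjamini-Hochberg adjustment over the 11 ratios, and the adjusted p-values do not bear on whether ratios differed. The ratio of Xrcc5 to Xrcc6, the Ku subunits, was 3.51, 2.45, 1.48 and 2.32 in WT and 4.60, 2.91, 3.40 and 3.39 in KO. The groups overlapped, and the exact permutation p was 0.114 for n = 4 against 4. Xrcc4 was 5.34, 4.28, 2.09 and 6.14 times Lig4 in WT and 6.77, 6.05, 6.35 and 6.12 times in KO (exact permutation p = 0.0857). WT mouse 3 stood lowest in both ratios, while the 4 KO mice lay close together for Xrcc4 to Lig4.

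Lig4 relative to Abhd13, the gene that starts 21 bp away on the other strand, was 0.163, 0.27, 0.21 and 0.174 in WT and 0.123, 0.132, 0.113 and 0.162 in KO. The groups did not overlap, by a narrow margin between WT mouse 1 and KO mouse 4, and the exact permutation p was 0.0286 (0.314 adjusted over the 11). This ratio reuses the Lig4 values, which rest on 24 to 58 counts per library and do not overlap by themselves. It therefore adds no separate support. Rad50 was 9.60, 9.64, 9.74 and 16.6 times Mre11a, its partner in the break-sensing complex, in WT and 13.8, 9.60, 14.5 and 10.3 times in KO.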
